A study of Mus musculus with 7 samples.

Results

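The genes described here are 44 mouse genes of the antioxidant system, namely the transcription factor NRF2 (gene Nfe2l2) and its inhibitor Keap1, classical NRF2 targets, the enzymes that make and use glutathione, and the peroxiredoxins, thioredoxins, superoxide dismutases, catalase and metallothioneins. They were taken from a list of gene symbols and matched through the accession of each array probe. All 44 had a probe that was well above background on all 7 arrays, and they are 44 of the 23678 genes tested. RNA came from the heart apex of male C57Bl/6 mice, 1 mouse per array. The 3 DKO mice were homozygous for loxP-flanked Akt1 and Akt2 alleles (exons 6 and 7 of Akt1, exons 5 and 6 of Akt2) and heterozygous for MHC-mercremer, a Cre recombinase that tamoxifen switches on and that the alpha myosin heavy chain promoter restricts to cardiomyocytes. In the 4 control mice MHC-mercremer was likewise heterozygous, and it was the only transgene given for them. Both groups received 4-hydroxytamoxifen at a daily dose of 500 µg on 5 days. Hearts were collected 10 days after induction from mice aged 3 months, so exposure to Cre and to the drug was common to both. Only cardiomyocytes lose Akt by design, while RNA from every cell of the apex enters each value.

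NRF2 is held in the cytosol by KEAP1, which marks it for degradation. Oxidants and electrophiles modify KEAP1, NRF2 then enters the nucleus, pairs with a small MAF protein and binds antioxidant response elements near genes for glutathione synthesis, conjugation and peroxide removal. Akt is linked to this system in textbook schemes through GSK3, a kinase that Akt inhibits and that promotes NRF2 breakdown, and through FoxO factors, which Akt keeps out of the nucleus and which drive Sod2 and Cat.

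Promoter sequences were available for 39 of the 44 genes, from RefSeq on build GRCm38.p6, each covering 250 bases before and 50 after the annotated start. Matches were sought on both strands. The antioxidant response element TGACNNNGC was present in 10 of the 39 genes (25.6%), against 14.0% of all 27025 genes with such a window. The NRF2-small MAF site TGANTCAGC, which can overlap the first motif, was present in 4 of them (10.3%), against 1.36% (Gstp1, Mt2, Prdx1 and Srxn1). The FoxO site GTAAACA was found in 0 of the 39, against 4.05% of all genes. The stretches below show motif matches of genes whose transcripts are set side by side in the results, with the motif in capitals and read 5′ to 3′ on the strand that carries it.
Srxn1, antioxidant response element, 29 to 37 bases after the start (chr2:152105542-152105570): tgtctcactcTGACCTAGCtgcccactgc
Srxn1, NRF2-small MAF site, 45 to 37 bases before the start (chr2:152105469-152105497): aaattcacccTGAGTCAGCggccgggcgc
Prdx1, both motifs on the same bases (chr4:116685456-116685484): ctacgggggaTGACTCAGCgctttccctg
Mt2, both motifs on the same bases (chr8:94172529-94172557): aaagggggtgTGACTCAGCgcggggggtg
Gstp1, NRF2-small MAF site (chr19:4037968-4037996): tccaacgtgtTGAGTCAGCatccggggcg
Txnrd1, antioxidant response element (chr10:82859104-82859132): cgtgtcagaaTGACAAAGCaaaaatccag
Gclm, antioxidant response element (chr3:122245413-122245441): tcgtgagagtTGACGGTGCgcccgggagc
Nfe2l2, antioxidant response element (chr2:75704885-75704913): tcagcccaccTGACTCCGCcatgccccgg
Gstm5, antioxidant response element (chr3:107895802-107895830): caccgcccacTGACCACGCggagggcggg
Of the 7 genes that differed between the groups, Srxn1 alone had either motif in its window. The windows of Gpx3, Nqo1, Gstm3, Gstm4, Gstm6 and Glrx held none of the 3, which concerns these windows only and says nothing of sites farther away.

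Values below are log2 signals scaled to the 75th percentile of each array, and a difference is DKO minus control. All 7 arrays lay on 1 slide, with 53.0% to 57.6% of spots well above background and 0 saturated. The brightest Akt2 probe averaged 11.64 ± 0.03 in DKO hearts and 13.69 ± 0.07 in control hearts (SD, n = 3 and 4), 4.13-fold lower, while the brighter Akt1 probe averaged 14.65 ± 0.04 in DKO hearts and 14.48 ± 0.06 in control hearts (limma, adjusted p = 0.000203 and 0.199 over probes). The position of the probes against the deleted exons was not analysed here, so the Akt1 value does not check the deletion. Arrays of 1 group correlated at 0.984 to 0.994 and arrays of different groups at 0.978 to 0.990. Control replicate 1 stood somewhat apart, since arrays of 1 group without it correlated at 0.991 to 0.994. Of the 44 genes it was the highest control for 17 and the lowest for 14. Control replicates 2, 3 and 4 were the highest for 16, 3 and 8 and the lowest for 2, 17 and 11, so these counts alone do not set it apart.

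Of the 44 genes, 6 were higher in DKO hearts past an adjusted p of 0.05 (limma, two-sided, Benjamini-Hochberg over all genes), namely Gpx3, Nqo1, Srxn1, Gstm3, Gstm4 and Gstm6, and Glrx was lower. That is 13.6% of the 44 higher, where 2.41% of all tested genes were higher, and 1 of 44 lower, where 2.29% of all genes were lower. In either direction it is 15.9% of the 44 against 4.7% of all genes. An unadjusted p below 0.05 was seen for 18 of the 44, 16 higher and 2 lower. Such a p is common over all genes, since Gclc, at 0.0494 (limma, unadjusted), ranked only 6003 among the 23678 genes by p. The signals of the groups did not overlap in 13 genes with higher DKO values (29.5%, against 13.2% of all genes) and in 2 with lower ones (4.55%, against 12.5%), where non-overlap in either direction was seen for 25.7% of all genes. The difference was above 0 in 37 of the 44, or 84.1%, against 46.9% of all genes. With quantile normalization it was above 0 in 30 of the 44 (50.7% of all genes), and with normexp and quantile normalization in 29 (49.4%), since genes near 0 changed sign, among them Gpx1, Prdx1, Prdx2 and Prdx6. The median difference was 0.13 over the 44 and -0.02 over all genes, but the median size of a difference regardless of sign was 0.17 against 0.18. Most differences were thus small and above 0, and 37 of the genes did not pass individually.

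**Figure D1:**
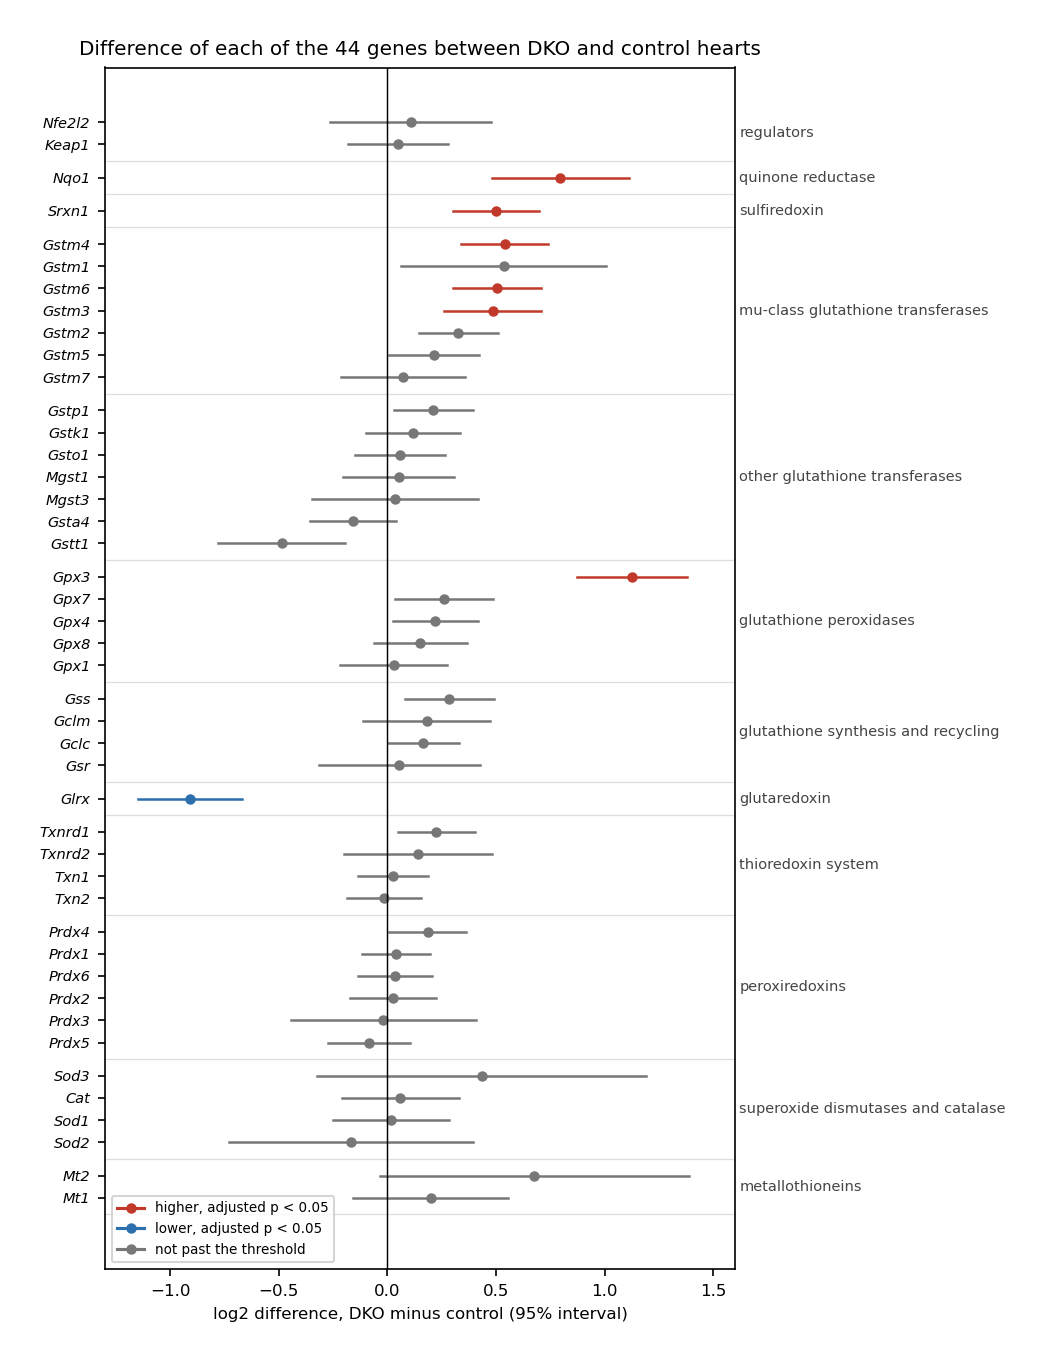
Log2 difference between DKO and control hearts for each of the 44 genes (points) with its 95% interval (lines), grouped by role. Gpx3 at 1.13 lies farthest to the right and Glrx at -0.91 farthest to the left, and most of the grey points sit slightly above 0.

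The count of 6 fell when any 1 array was left out. It was 5 without control replicate 1 or 2, 2 without control replicate 3, and 1 without control replicate 4 or without any one of DKO replicates 1, 2 and 3. Gpx3 and Glrx passed in each of these 7 fits. The count over all genes, 1114 with every array, fell as well except without control replicate 2. It was 712, 1127, 417 and 191 without control replicates 1, 2, 3 and 4. Without DKO replicates 1, 2 and 3 it was 160, 276 and 352.

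The regulators themselves showed no difference beyond the spread between hearts. Nfe2l2, which encodes NRF2, had 11.60, 11.68 and 11.85 in DKO hearts, against 11.34, 11.89, 11.41 and 11.77 in control hearts. The DKO values lay inside the control range, and the difference was 0.11 with a 95% interval from -0.26 to 0.48 (limma, adjusted p = 0.702). Keap1, its inhibitor, had 11.93, 12.24 and 11.997 in DKO hearts, against 12.06, 11.99, 12.07 and 11.90 in control hearts. Its difference was 0.05, with an interval from -0.18 to 0.28 (limma, adjusted p = 0.777). Transcript level is not how this pathway is mainly controlled, and neither protein nor its location was measured.

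Among the classical NRF2 targets, Nqo1 and Srxn1 rose, and their DKO and control signals did not overlap. Nqo1 encodes a quinone reductase that turns quinones into hydroquinones without forming radicals. Its signal was 11.01, 11.34 and 11.21 in DKO hearts, against 10.36, 10.67, 10.22 and 10.30 in control hearts. It rose 1.74-fold (log2 0.80 ± 0.13, SE, limma adjusted p = 0.0269). Srxn1 encodes sulfiredoxin, which repairs overoxidised peroxiredoxins. It had 11.16, 11.12 and 11.08 in DKO hearts, against 10.68, 10.65, 10.46 and 10.70 in control hearts, a 1.41-fold rise (log2 0.50 ± 0.08, limma adjusted p = 0.0267). The DKO values of Srxn1 lay close together, and control replicate 3 was the lowest control for both genes. Nqo1 passed in 1 of the 7 fits with an array left out (adjusted p up to 0.0862 without DKO replicate 2) and Srxn1 in 3 (up to 0.0945 without DKO replicate 1).

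**Figure D2:**
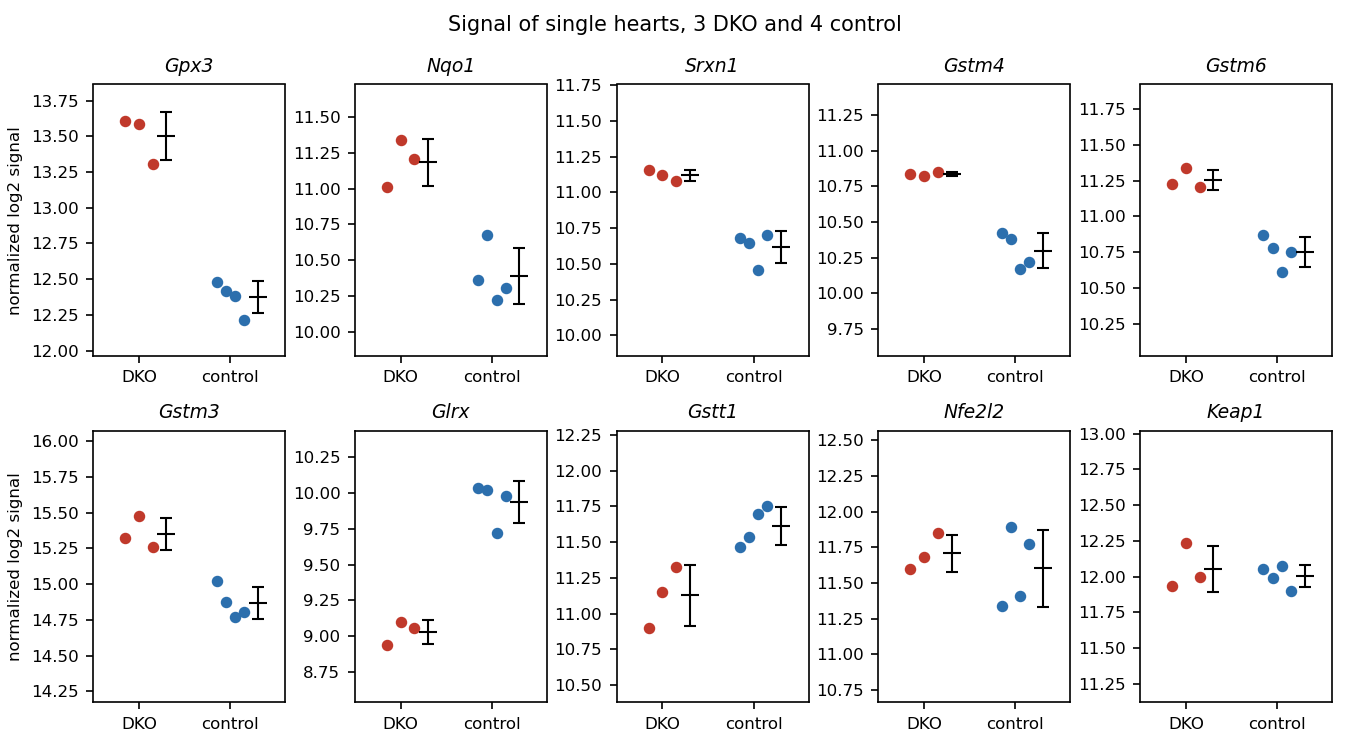
Normalized log2 signal of single hearts for 10 of the genes, DKO hearts in red at the left and control hearts in blue at the right, with the mean and SD of each group beside the points. Every panel spans the same height on the log2 scale. The groups are separate for Gpx3, Nqo1, Srxn1, the 3 Gstm genes, Glrx and Gstt1, and overlap for Nfe2l2 and Keap1.

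Glutathione transferases of the mu class formed the largest set of rises. They attach glutathione to electrophiles, and their genes lie on chromosome 3. All 7 measured genes had higher means in DKO hearts, 3 passed (limma, adjusted p from 0.0232 to 0.0381), and their median difference was 0.48. Gstm4 had 10.84, 10.83 and 10.85 in DKO hearts, against 10.42, 10.38, 10.17 and 10.22 in control hearts, a rise of log2 0.54 ± 0.09. Gstm6 had 11.23, 11.34 and 11.21 in DKO hearts, against 10.87, 10.78, 10.61 and 10.75 in control hearts, a rise of 0.50 ± 0.09. Gstm3 had 15.32, 15.48 and 15.26 in DKO hearts, against 15.02, 14.87, 14.77 and 14.80 in control hearts, a rise of 0.48 ± 0.09. These are folds of 1.45, 1.42 and 1.40, and no DKO heart overlapped a control heart in any of the 3 genes.

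Gstm2 was separated in the same way without passing. It had 14.70, 14.66 and 14.66 in DKO hearts, against 14.38, 14.45, 14.31 and 14.24 in control hearts (difference 0.33, limma adjusted p = 0.0611). Gstm1 had a difference as large as that of Gstm4, at 0.53, but its brightest probe scattered widely, with 14.52, 14.89 and 14.49 in DKO hearts, against 14.52, 14.20, 13.94 and 13.74 in control hearts. Its adjusted p was 0.156, and 0.0852 without control replicate 1, the highest control. A second Gstm1 probe, at 13.14 ± 0.09 in DKO hearts and 12.67 ± 0.09 in control hearts, gave 0.48 ± 0.08 and passed among probes (limma, adjusted p = 0.0303). Gstm5 and Gstm7 were at 0.21 and 0.07 (adjusted p = 0.186 and 0.742).

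Probes of 1 gene did not always give the same difference in this family. The brighter Gstm6 probe carried the rise, whereas a dimmer one averaged 8.04 ± 0.32 in DKO hearts and 8.13 ± 0.12 in control hearts (difference -0.09, limma adjusted p = 0.745). With the mean of both probes Gstm6 did not pass (adjusted p = 0.256). The 2 Gstm5 probes gave 0.21 and 0.18. The mu-class genes are close copies of each other and probe sequences were not used here, so cross-hybridisation was not tested and which single gene carries a rise is uncertain. Median values over the 7 genes, relative to the control mean, were 0.42, 0.53 and 0.39 in DKO hearts, against 0.13, 0.07, -0.13 and -0.06 in control hearts. With single arrays left out, Gstm4 and Gstm6 passed in 2 of 7 fits and Gstm3 in 1 (adjusted p up to 0.114 for Gstm3 without DKO replicate 2).

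**Figure D3:**
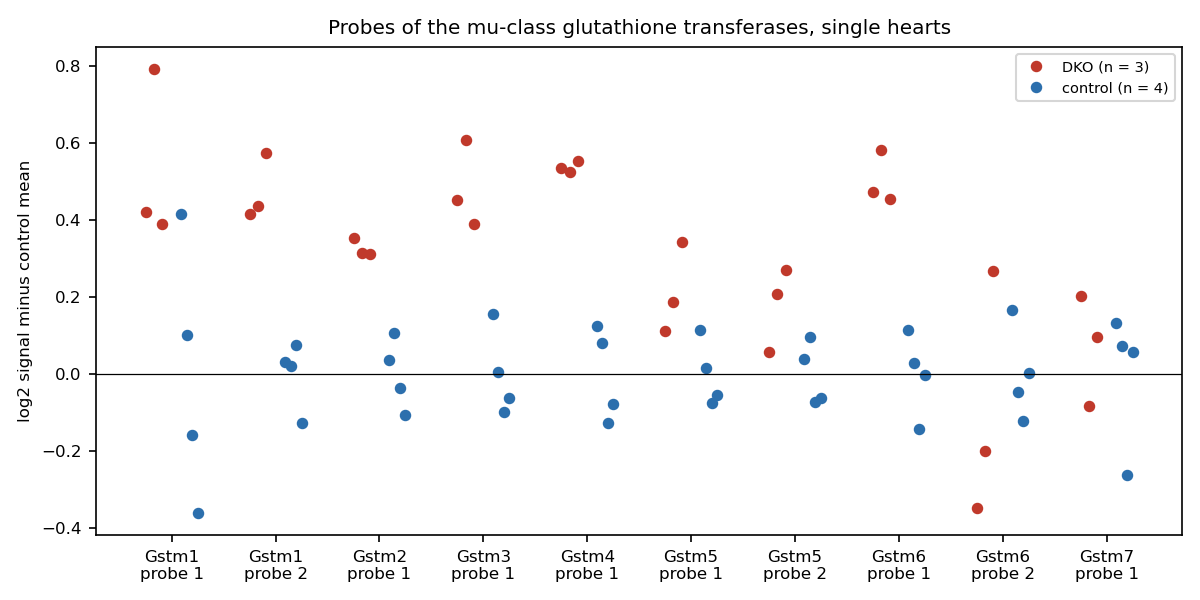
Log2 signal of each mu-class probe in single hearts, minus the control mean of that probe, with DKO hearts in red left of control hearts in blue and probe 1 the brighter of a gene. Both groups are apart for Gstm1 probe 2, Gstm2, Gstm3, Gstm4 and Gstm6 probe 1, and mixed for Gstm6 probe 2 and Gstm7.

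The other glutathione transferases had smaller differences in both directions, none past the threshold. Their median difference was 0.05 over 7 genes, of which 0 passed in limma and 2 were below an unadjusted p of 0.05. Gstt1, of the theta class, had 10.90, 11.15 and 11.32 in DKO hearts, against 11.47, 11.54, 11.69 and 11.75 in control hearts. All DKO values were below all control values, a difference of -0.49 ± 0.12 (limma, adjusted p = 0.0733). Gstp1, of the pi class, was at 0.21 (interval 0.03 to 0.39, adjusted p = 0.151). Gsta4, of the alpha class, which handles the lipid aldehyde 4-hydroxynonenal, was at -0.16 (adjusted p = 0.281). Gstk1, Gsto1, Mgst1 and Mgst3 lay between 0.04 and 0.12.

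Gpx3 had the largest change of the 44 genes. It encodes the secreted glutathione peroxidase of plasma, a selenoprotein made chiefly by the kidney. It had 13.61, 13.59 and 13.31 in DKO hearts, against 12.48, 12.42, 12.38 and 12.22 in control hearts, so that the lowest DKO heart exceeded the highest control heart. The rise was 2.18-fold (log2 1.13 ± 0.11, limma adjusted p = 0.00677), and it lay between 1.07 and 1.22 with any 1 array left out. The other peroxidases gave smaller differences that did not pass. Gpx4, which reduces lipid hydroperoxides in membranes, had 16.34, 16.24 and 16.21 in DKO hearts, against 15.92, 16.15, 16.09 and 16.01 in control hearts, without overlap and without passing (difference 0.22, limma adjusted p = 0.160). Gpx1, the abundant cytosolic form, was at 0.03 (interval -0.22 to 0.28) and at -0.096 with quantile normalization. Gpx7 and Gpx8, peroxidases of the endoplasmic reticulum, were at 0.26 and 0.15 (adjusted p = 0.153 and 0.334).

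Glutathione synthesis and recycling did not pass for any of 4 genes in limma. An unadjusted p below 0.05 was seen for 2 of them, and is common over all genes. Gclc, with the larger p of the 2, ranked 6003 among 23678 genes by p. All had higher means in DKO hearts. Gss, glutathione synthetase, had 11.51, 11.49 and 11.34 in DKO hearts, against 11.25, 11.04, 11.23 and 11.12 in control hearts (difference 0.28, adjusted p = 0.108). Gclc and Gclm, the catalytic and modifier subunits of the rate-limiting ligase and standard NRF2 targets, were at 0.16 (interval 0.00 to 0.33) and 0.18 (interval -0.11 to 0.47), with adjusted p = 0.195 and 0.396. Gsr, which regenerates reduced glutathione, was at 0.06 (adjusted p = 0.850). Gclm has an antioxidant response element in the window shown above, as does Srxn1.

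Glrx was the single gene of the 44 that was lower past the threshold. It encodes glutaredoxin, a small enzyme that removes glutathione from protein thiols. Its signal was 8.93, 9.10 and 9.05 in DKO hearts, against 10.04, 10.02, 9.72 and 9.98 in control hearts. Every DKO heart was below every control heart, a fall of 1.88-fold (log2 -0.91 ± 0.10, limma adjusted p = 0.00886), and the difference lay between -0.98 and -0.86 with any 1 array left out.

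In the thioredoxin and peroxiredoxin systems no gene passed. Txnrd1, the cytosolic thioredoxin reductase and an NRF2 target, had 11.69, 11.77 and 11.60 in DKO hearts, against 11.40, 11.53, 11.42 and 11.49 in control hearts, a narrow separation (difference 0.23, limma adjusted p = 0.129). A second Txnrd1 probe gave 0.30. The mitochondrial Txnrd2 was at 0.14, cytosolic Txn1 at 0.02 and mitochondrial Txn2 at -0.02. For Txn1 the interval of -0.14 to 0.19 bounds the difference in either direction. Of the 6 peroxiredoxins, which reduce peroxides with thiols, 0 passed (1 at an unadjusted p below 0.05) and the differences ran from -0.08 for Prdx5 to 0.19 for Prdx4. Prdx4, the form of the endoplasmic reticulum, was apart without passing (11.06, 11.06 and 10.99 in DKO hearts, against 10.74, 10.93, 10.88 and 10.85 in control hearts, adjusted p = 0.179). Prdx1, whose window holds both NRF2 motifs, was at 0.04, and its 3 probes gave 0.04, 0.07 and 0.19. Prdx2, Prdx3 and Prdx6 were at 0.03, -0.02 and 0.03, and with quantile normalization Prdx1, Prdx2 and Prdx6 lay below 0.

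Superoxide dismutases and catalase, the enzymes that remove superoxide and hydrogen peroxide, gave 0 calls among 4 genes (0 at an unadjusted p below 0.05). Sod2, the mitochondrial form and a textbook FoxO target, had 13.02, 12.76 and 12.90 in DKO hearts, against 12.39, 13.25, 13.23 and 13.38 in control hearts. Control replicate 1 was far below the other controls. With it the difference was -0.17 (adjusted p = 0.689), and without it -0.39 (adjusted p = 0.0858). Extracellular Sod3 had 12.38, 12.31 and 12.23 in DKO hearts, against 10.95, 12.37, 12.12 and 12.06 in control hearts, again with control replicate 1 lowest. Its difference was 0.43 with that array and 0.12 without it (adjusted p = 0.434 and 0.508). Cytosolic Sod1 and catalase (Cat) were at 0.02 and 0.06, with intervals of -0.25 to 0.28 and -0.21 to 0.33.

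Metallothioneins, cysteine-rich proteins that bind zinc and copper, varied strongly between hearts of 1 group. Mt2 had 14.10, 13.35 and 13.63 in DKO hearts, against 13.55, 12.83, 13.28 and 12.39 in control hearts. Its difference of 0.68 was the third largest in size among the 44 that were positive, yet its interval ran from -0.03 to 1.39 (limma, adjusted p = 0.213). Mt1 was at 0.20 (interval -0.16 to 0.56, adjusted p = 0.443).

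Genes around this system were examined in 8 lists, leaving out the 44. Their counts stand beside the 2.41% of all genes that were higher, the 2.29% that were lower, the 46.9% with a difference above 0 and the all-gene median of -0.02. Of 18 measured regulators of NRF2, 2 rose and 0 fell (median 0.07). Mafk, a small MAF partner of NRF2, had 10.31, 10.30 and 10.22 in DKO hearts, against 9.50, 9.79, 9.51 and 9.58 in control hearts, a rise of log2 0.68 ± 0.09 (limma, adjusted p = 0.0147). Sqstm1, the autophagy receptor p62 that sequesters KEAP1, rose by log2 0.54 ± 0.07 (limma, adjusted p = 0.0150). Each passed in 4 of 7 fits with an array left out.

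Of 27 further NRF2 targets 2 rose and 0 fell, and their median difference was 0.01. Blvrb, a biliverdin reductase of haem breakdown, had 11.34, 11.26 and 11.29 in DKO hearts, against 10.20, 10.33, 10.37 and 10.36 in control hearts. It rose by log2 0.98 ± 0.07 (limma, adjusted p = 0.00400) and passed in 7 of 7 fits that left out 1 array. Blvrb lies on chromosome 7, the seventh tested gene from Akt2 in the RefSeq order, and whether the modified Akt2 allele or its flanks bear on its signal was not tested. Ephx1, microsomal epoxide hydrolase, rose by 0.80 ± 0.14 (limma, adjusted p = 0.0292) but passed in 2 of 7 such fits. Hmox1, haem oxygenase and the best known target, was at 0.51 ± 0.12 without passing (limma, adjusted p = 0.0646).

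Genes that supply or break down glutathione had the highest median of these lists, 0.17, with 4 of 23 higher and 1 lower. Chac1, which degrades glutathione, rose by log2 1.22 ± 0.08 and its relative Chac2 fell by 0.88 on the log2 scale (limma, adjusted p = 0.00324 and 0.0185). Cbs and Cth, the consecutive enzymes that turn homocysteine into cysteine, rose by 0.92 ± 0.09 and 1.05 ± 0.13 (limma, adjusted p = 0.00677 and 0.0124). Both were dim, with Cbs at 6.80 in DKO and 5.88 in control hearts and Cth at 7.14 and 6.09. Glul, glutamine synthetase, had 14.06, 14.13 and 14.17 in DKO hearts, against 13.33, 13.36, 13.46 and 13.33 in control hearts, a rise of 0.75 ± 0.07 (limma, adjusted p = 0.00677). Chac1, Cbs and Glul passed in 7 of 7 fits that left out 1 array, Cth in 5 and Chac2 in 3.

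Supply of NADPH, the reductant of these enzymes, showed 0 rises and 1 fall among 19 genes. The mitochondrial folate enzyme Aldh1l2 fell by 1.18 on the log2 scale (limma, adjusted p = 0.0292) and passed in 1 of 7 fits with an array left out. It was dim, at 6.36 in DKO and 7.54 in control hearts. Of 24 genes for selenium use and other selenoproteins, Selenos, a protein of the endoplasmic reticulum, rose (0.63 ± 0.10) while Pstk and Secisbp2, both needed to insert selenocysteine, fell (-0.50 ± 0.08 and -0.52 ± 0.10). The limma adjusted p values were 0.0216, 0.0259 and 0.0344. With an array left out Selenos passed in 2 of 7 fits, Pstk in 3 and Secisbp2 in 0. Selenos and Pstk lie on chromosome 7 as well, 314 and 774 tested genes away from Akt2. Whether the modified Akt2 allele or its flanks bear on their signals was not tested.

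In the list of further thioredoxin and glutathione enzymes, 2 of 31 rose and 0 fell. Txnip, an inhibitor of thioredoxin, rose by log2 0.91 ± 0.18 (limma, adjusted p = 0.0410) but passed in 0 of 7 fits with an array left out. The microsomal transferase Mgst2 was well above background on 0 of 4 control arrays and all 3 DKO arrays, at 5.44 ± 0.19 in DKO hearts and 4.62 ± 0.24 in control hearts. It was at least 1.70-fold higher, set against the lowest signal well above background on each control array (limma, adjusted p = 0.0367), and it passed in 2 of 7 such fits. Mgst2 met the filter of 3 arrays through the DKO hearts alone. Its call, counted among the 2 of 31, therefore depends on that filter and is not support for a rise. Of 21 sources of oxidants, such as NADPH oxidase subunits and xanthine dehydrogenase, 0 passed in limma, with 2 below an unadjusted p of 0.05, and 18 had higher means in DKO hearts (median 0.10), beside 46.9% of all genes. The smallest p was that of Aox1, an aldehyde oxidase that is also listed as an NRF2 target (difference 0.22, limma adjusted p = 0.169). Of 18 genes of metal handling, the ferroxidase ceruloplasmin (Cp) rose by 1.02 ± 0.14 and the copper importer Slc31a1 fell by 0.55 on the log2 scale (limma, adjusted p = 0.0149 and 0.0436). Cp passed in 5 of 7 such fits and Slc31a1 in 1.

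**Figure D4:**
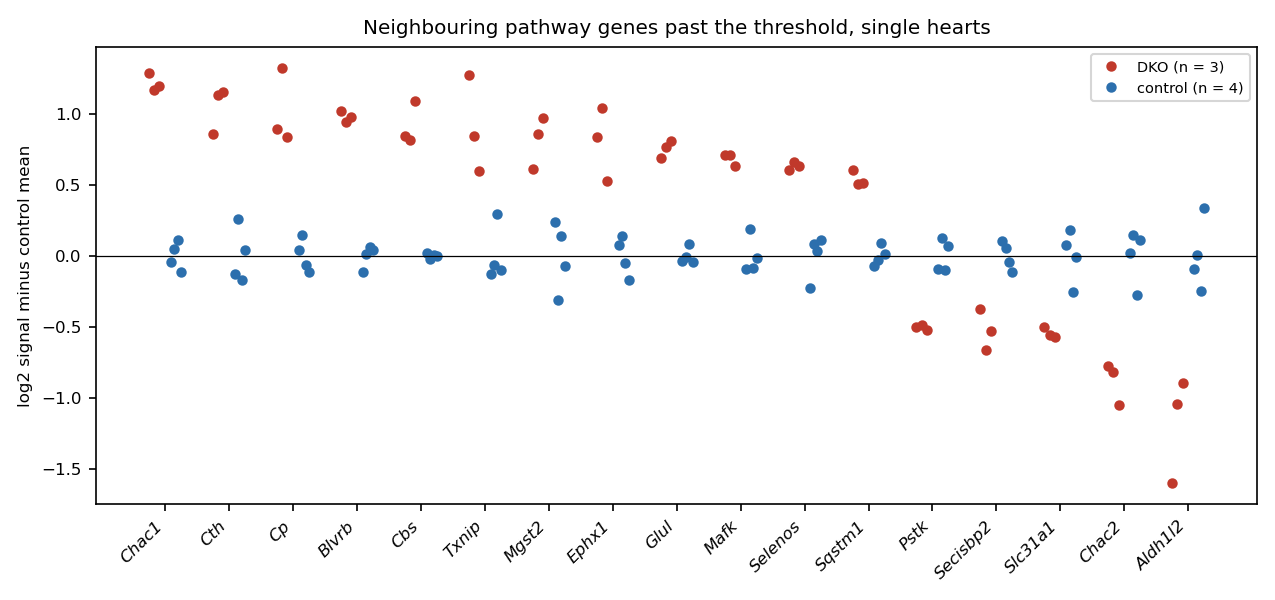
Log2 signal in single hearts, minus the control mean, of the 17 genes of the 8 surrounding lists that passed the threshold, DKO hearts in red left of control hearts in blue and ordered by difference. From Chac1 to Sqstm1 all DKO hearts lie above all control hearts, and from Pstk to Aldh1l2 below them.

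In RNA of whole tissue, fewer cells of a type and less RNA per cell cannot be told apart. Of 10 cardiomyocyte markers 0 passed (median -0.06), and the log2 of their summed signal was 20.97 to 21.11 in DKO hearts, against 20.98 to 21.07 in control hearts. All 9 endothelial markers had higher means in DKO hearts (median 0.20, 0 passed), with sums of 16.12 to 16.14 in DKO hearts, against 15.84 to 16.10 in control hearts. Of 9 fibroblast markers 8 had higher means (median 0.14, 0 passed), with sums of 16.80 to 17.04 in DKO hearts, against 16.74 to 16.82 in control hearts. Their means differed in the direction of Gpx3 and the Gstm genes, and their part in those differences was not tested. Of 5 measured atrial markers Kcnj3 was lower, 2 had higher means, and the median difference was -0.43. Nppa differed by 0.82 without passing (limma, adjusted p = 0.0788), while Kcnj3, Myl7 and Myl4 were at -0.89, -1.09 and -0.43. Myl7 was dim, at 4.19 in DKO and 5.28 in control hearts, and Myl7 and Myl4 did not pass (limma, adjusted p = 0.199 and 0.147). The sums over all 5, which went in the direction of Nppa and against that of the median, were 16.94 to 17.51 in DKO hearts, against 15.98 to 16.73 in control hearts. Of 9 mural markers Myh11 was higher, 7 had higher means and the median difference was 0.32, so the mural list too differed in the direction of Gpx3 and the Gstm genes. Acta2 was at -0.41 without passing (limma, adjusted p = 0.128), and the mural sums overlapped, with values of 16.11 to 16.31 in DKO hearts, against 16.12 to 16.36 in control hearts. Of 3 measured liver markers Ttr was higher, with sums of 7.33 to 7.69 in DKO hearts, against 6.55 to 6.99 in control hearts, while Alb, Apoa1, Fgb and Cps1 were not kept. The liver markers that were kept were dim, with control means of 4.79 for Ttr, 5.32 for Cyp2e1 and 5.30 for Serpina1a. Of 3 measured adipocyte markers 0 passed, with sums of 15.71 to 15.82 in DKO hearts, against 15.30 to 15.70 in control hearts, while Adipoq, Plin1, Cidec, Retn and Ucp1 were not kept. The adipocyte sum was almost wholly Fabp4, with means of 15.76 in DKO and 15.46 in control hearts. Cfd was at 6.99 and 5.95, and Lep at 8.49 and 8.56. The endothelial, atrial, liver and adipocyte sums did not overlap between the groups, and the part of these and of the mural markers in the results was not tested. Of 9 macrophage markers 0 passed and 5 had higher means, with sums of 13.97 to 14.39 in DKO hearts, against 14.06 to 14.19 in control hearts. Erythroid markers, from a cell type rich in catalase, Prdx2 and Gpx1, overlapped, with sums of 18.93 to 19.37 in DKO hearts, against 18.95 to 19.17 in control hearts. For the kidney, the main source of plasma Gpx3, the defining markers Umod and Slc12a1 were not kept as measured. The 2 kidney markers that were kept did not pass, with sums of 7.67 to 8.22 in DKO hearts, against 7.48 to 8.03 in control hearts.

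The groups were unevenly spread over the slide. In slide row 1 were 1 DKO and 3 control arrays and in row 2 were 2 DKO arrays and 1 control array. The 7 genes that passed differed in the same direction within both rows. That had to be so, since no DKO heart overlapped a control heart in any of them, and it does not check the layout. Gpx3 gave 0.95 in row 1 and 1.18 in row 2, Nqo1 0.91 and 0.50, Srxn1 0.47 and 0.49, and Glrx -0.858 and -1.002. The Gstm3, Gstm4 and Gstm6 differences were 0.39, 0.58 and 0.46 in row 1, and 0.52, 0.45 and 0.50 in row 2. With slide row as a block in limma, Gpx3 and Glrx passed (adjusted p = 0.0249 and 0.0368) and the other 5 did not (0.0723 to 0.102). Nfe2l2 changed sign between rows, at 0.34 in row 1 and -0.25 in row 2.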

How the data were processed

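Total RNA (100 ng) of 7 heart apices was labelled with Cy3, per the labels' protocols, and read on 1-colour Agilent arrays of design 074809. Per the file headers, the authors used Feature Extraction 12.0.3.1. The deposited scanner files give a background-subtracted processed intensity, median spot and background intensities, and flags for 62976 spots. The deposited value table of the authors holds log2 values of 56745 probes. They matched quantile-normalized scanner values centred on each probe's median (r of 0.9997 to 0.9999 across probes), and every column has a median of 0, with software not given in the sources used here.

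Control and outlier spots were left out. Log2 processed intensity was scaled to the 75th percentile of each array, with the mean percentile (9.14) added back. Probes were named by accession through RefSeq genes of GRCm38.p6 (32994 of 56605 matched). Probes well above background on 3 or more arrays were kept, and the brightest stood for a gene. This gave 23678 genes, 14720 with a symbol.

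The difference of DKO from control was fitted in limma (version 3.58.1, R 4.3.3; two-sided, Benjamini-Hochberg, 0.05), with group as the single term. Probe values were adjusted over the 30538 kept probes. On simulated data for this comparison with 200 changed genes among 23678, 22.5% of genes changed by log2 0.5 were called, as were 57.8% of those changed by log2 1 and 90.8% at log2 2, beside 7 false calls. Each mouse is 1 animal per the labels, and their small number limits how precise a value can be. The files hold no mean signal, so normexp alternatives used the median signal. The genes, lists and motifs were chosen with earlier results of these data known. By the rule for named genes, values per array are given for genes past the threshold, Nfe2l2 and Keap1, and from each list every gene past the threshold is named, or else the gene with the smallest p. Hmox1 and the values per array of further genes were added after their values were seen. Alternatives covered normalization, background correction, filters, probe choice, variance models, array weights, blocks and single arrays left out. Proteins were not used here.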

Additional observations from a re-analysis of the deposited data

Results flagged for a closer look

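Among the 4 control hearts, 3 of 61 genes examined (the 44 genes and the 17 genes past the threshold in the surrounding lists) had 1 heart far from the other 3 by Dixon's criterion (the gap to the nearest other heart, divided by the range), and chance alone marks about 1 in 20. Sod2 was at 12.39 in control replicate 1, against 13.23 to 13.38 in the other controls. Txn1 was at 12.70 in control replicate 1, against 12.80 to 12.82. Txnip was at 14.60 in control replicate 3, against 14.18 to 14.24.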

How the results depend on the processing

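The counts of genes past the threshold depended on the processing, while the median difference of the 44 genes stayed between 0.09 and 0.15 in all 20 alternatives. Genes higher in DKO numbered 6, against 3 with normexp and quantile normalization, 1 without a filter and 1 with slide row as a block. They numbered 7, with Gstm2 added, under a filter of all arrays well above background, a trended variance or array weights. With an array left out they numbered 1 to 5. Genes lower numbered 1, against 2 with a trended variance or array weights, where Gstt1 joined Glrx. Over all genes 1114 passed, against 568 and 719 with normexp and the percentile or quantile normalization, 121 without a filter, 2007 with a trend, 1680 with array weights, 288 with slide row, and 160 to 1127 with an array left out. The named genes of the surrounding lists numbered 17, against 4 without a filter, 9 with slide row, and 4 to 14 with an array left out. Replicate numbers did not pair the hearts (deviations of same-numbered hearts correlated at 0.13, 0.01 and 0.03). With the replicate block, 0 of the 44 were higher and 0 lower, 0 list genes passed and 1 gene passed over all. That fit has fewer residual degrees of freedom. Control replicate 4 has no DKO heart of its number, so it adds nothing to the difference there. The differences under the block therefore equal those without control replicate 4, with a median of 0.13 over the 44 in both. The other causes were not tested. Without a filter many more dim genes enter the fit and the adjustment.

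Signs changed for genes near 0, none of which was past the threshold under any alternative that was run. Under quantile normalization these were Gpx1 (-0.096), Prdx1 (-0.072), Prdx2 (-0.070), Prdx6 (-0.057), Sod1 (-0.065), Gsto1 (-0.055) and Mgst3 (-0.076). With normexp they were Prdx2 (-0.022) and Prdx3 (0.084), and with quantile normalization added Txn1 (-0.018), Gpx1 (-0.085), Prdx1 (-0.023), Prdx2 (-0.13), Prdx6 (-0.059), Gsto1 (-0.030), Mgst1 (-0.0048) and Mgst3 (-0.024). With the authors' values they were Txn1 (-0.0020), Gpx1 (-0.047), Prdx1 (-0.011), Prdx2 (-0.018), Prdx6 (-0.0038), Sod1 (-0.020) and Mgst3 (-0.023). Array weights turned Gpx1 (-0.030), slide row Mgst1 (-0.027), and the replicate block Gsr (-0.0025), Prdx3 (0.022), Sod1 (-0.032), Cat (-0.0065) and Mgst3 (-0.044). With an array left out, the ranges were -0.0065 to 0.12 for Cat, -0.021 to 0.098 for Gpx1, -0.015 to 0.19 for Gsr, -0.015 to 0.15 for Gstm7, -0.041 to 0.11 for Keap1, -0.055 to 0.13 for Mgst1, -0.044 to 0.18 for Mgst3, -0.014 to 0.079 for Prdx2, -0.19 to 0.070 for Prdx3, -0.032 to 0.11 for Sod1, -0.0038 to 0.038 for Txn1 and -0.040 to 0.015 for Txn2. Gpx3 and Glrx passed in 12 of the 13 alternatives other than the fits with an array left out. The exception was the replicate block (limma, adjusted p = 0.120 and 0.134), where control replicate 4 adds nothing to the difference.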
